A study of Ananas comosus with 8 samples.

Results

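The alpha and gamma carbonic anhydrases of pineapple leaf were described from 6 genes, which were taken by their gene identifiers from a matrix of 27024 genes. Aco007803 and Aco016727 are alpha-CA genes. Aco019038, Aco014975, Aco023760 and Aco017803 are gamma-CA genes. The tissue was the 'D' leaf, the mature leaf commonly sampled in pineapple (Ananas comosus var. comosus), of field-grown plants of the cultivar MD-2. The study names no treatment. RNA came from the green tip, which is photosynthetic, and from the white base, which is not, and poly(A) libraries were sequenced from 2 samples of each tissue. The labels give no time of day. The study's methods state a pair of libraries per tissue for its morning time point alone, and which time point the matrix holds was not tested. The matrix has 1 value per gene and tissue in FPKM (fragments mapped to a transcript, per kilobase of its length and relative to all mapped reads), so the spread between the libraries of a tissue is unknown and no difference below has a test or a p-value.

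Carbonic anhydrase (CA) interconverts CO2 and bicarbonate, and bicarbonate is the substrate of phosphoenolpyruvate carboxylase (PEPC), the enzyme that fixes carbon at night in crassulacean acid metabolism (CAM). Plants hold alpha, beta and gamma CAs, which are unrelated in sequence. The beta class contains the abundant leaf enzymes of the chloroplast and cytosol. Gamma-CA proteins are known in Arabidopsis as subunits of complex I, the NADH dehydrogenase of the mitochondrial respiratory chain, where they form a domain on the matrix side of the membrane. Plant alpha-CAs are less well known, and one in Arabidopsis reaches the chloroplast through the secretory pathway.

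The gamma-CA class as a whole differed little between the tissues in the deposited FPKM, whereas an alpha-CA gene differed about 10-fold. The 4 gamma-CA genes summed to 148 FPKM in green tip tissue against 131 FPKM in white base tissue, a ratio of 1.13. The 2 alpha-CA members summed to 46.7 FPKM against 6.49 FPKM, a ratio of 7.19. For comparison, the 3 beta-CA genes named by the study (Aco002732, Aco006181 and Aco005402) summed to 374 FPKM against 26.0 FPKM, a ratio of 14.4. With both columns rescaled to an equal sum (TPM), the ratios were 0.606 for the gamma-CA class, 3.87 for the alpha-CA members and 7.74 for the beta-CA genes. FPKM is scaled to transcript length, so levels of different genes can be summed and compared within a tissue.

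The classes therefore made up different parts of the CA transcripts of each tissue. The study lists 10 CA genes, which include 1 further alpha-CA gene, and their FPKM summed to 569 at the green tip against 164 at the white base. Gamma-CA genes held 26.0% of this sum at the green tip but 80.0% at the white base. The 2 alpha-CA members held 8.21% of it at the green tip and 3.96% at the white base, and beta-CA genes held 65.8% and 15.9%. At the white base the gamma-CA sum was 5.04 times the beta-CA sum, and at the green tip it was 0.395 times the beta-CA sum. These shares are taken within a tissue and do not depend on a scaling factor of the column. The beta-CA sum was the part of the total that differed most, while the gamma-CA sum was nearly level as deposited.

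**Figure D1:**
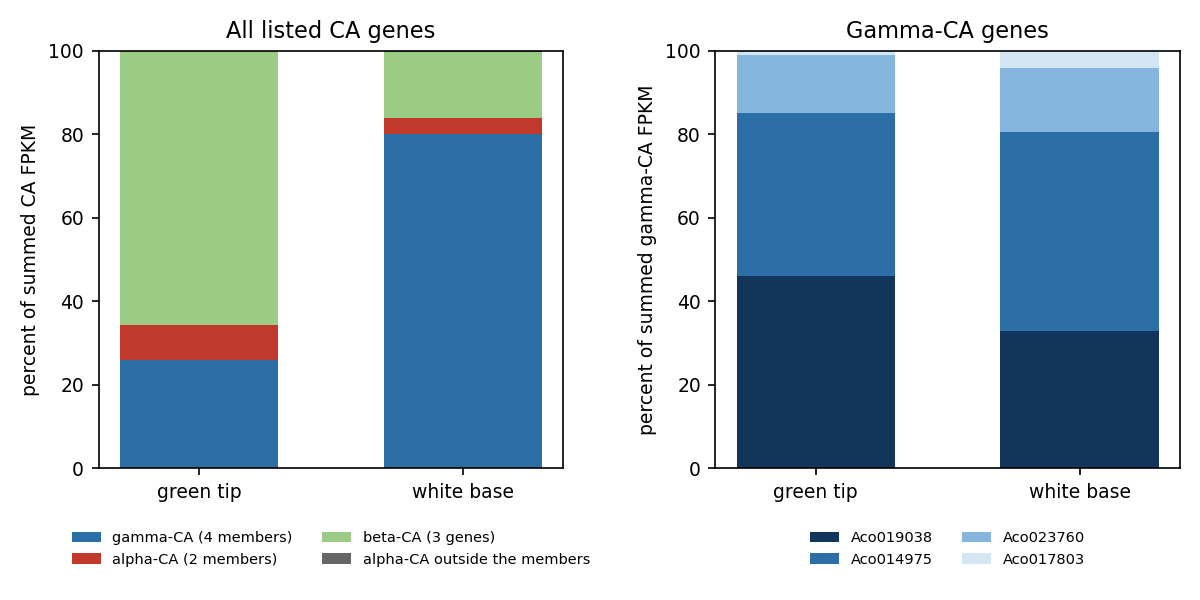
Composition of carbonic anhydrase transcripts, with bars stacked to 100% for the green tip and the white base. On the left the y axis is the percent of the summed FPKM of the 10 CA genes by class, and gamma-CA (blue) takes 26.0% at the green tip and 80.0% at the white base. The alpha-CA gene outside the 6 genes, Aco001338, is too small to see. On the right the y axis is the percent of the summed gamma-CA FPKM by gene, and Aco019038 takes 46.1% at the green tip and 32.9% at the white base.

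Among the gamma-CA genes, Aco014975 and Aco019038 were the pair with the highest FPKM in both tissues. Aco014975 had 57.7 FPKM in green tip tissue against 62.5 FPKM in white base tissue. Its log2 ratio of green tip over white base, calculated here on FPKM + 1, was -0.11. Aco019038 had 68.1 FPKM in green tip tissue against 43.2 FPKM in white base tissue, with a log2 ratio of 0.64. This was the largest positive log2 ratio in the class and was under 2-fold. Aco019038 was the higher of the pair at the green tip, at 1.18 times Aco014975, and the lower at the white base, at 0.692 times. The order of the pair therefore differed between the tissues by value, and the gap is under 1.5 times in each.

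Aco023760 was the gamma-CA gene with the most even values, at 20.7 FPKM in green tip tissue against 20.0 FPKM in white base tissue, which is a log2 ratio of 0.05. It held 14.0% of the gamma-CA sum at the green tip and 15.2% at the white base. The shares of Aco014975 were 39.0% and 47.6% in the same order, and those of Aco019038 were 46.1% and 32.9%. The largest shift in share within the class was that of Aco019038, by 13.1 percentage points.

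Aco017803 stood apart from the other gamma-CA genes by its level and by its ratio. It had 1.41 FPKM in green tip tissue against 5.58 FPKM in white base tissue, 3.95 times as much at the white base. Its log2 ratio on FPKM + 1 was -1.45, and the pseudocount understates the difference at so low a level. It held 0.956% of the gamma-CA sum at the green tip and 4.25% at the white base. Aco019038 had 48.2 times the FPKM of Aco017803 at the green tip and 7.75 times at the white base. Aco023760, the most even gene of the class, had 14.6 times and 3.58 times the FPKM of Aco017803 in the same order, and these ratios within a tissue are also free of column scaling. Whether a level this low varies as much between libraries of a tissue was not tested.

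The alpha-CA genes went in opposite directions. Aco007803 had 46.7 FPKM in green tip tissue against 4.60 FPKM in white base tissue, 10.1 times as much at the green tip, and a log2 ratio of 3.09. This was the largest log2 ratio among the 5 genes that have values above 0 in both tissues, and it lay above 97.3% of the log2 ratios of all 18372 genes whose mean of both tissues was over 0.5 FPKM. Aco016727 was listed at 0 at the green tip and at 1.89 FPKM at the white base, so that no fold can be given. At the white base it held 29.1% of the sum of the 2 alpha-CA members. The matrix listed 540 of the 18372 genes at 0 at the green tip, and at the white base 396 of them had more FPKM than Aco016727. The further alpha-CA gene, Aco001338, had 0.154 FPKM at the green tip and 0.365 FPKM at the white base, below 0.5 FPKM in both. Of the 3 alpha-CA genes, Aco007803 was thus the only one above 0.5 FPKM at the green tip.

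**Figure D2:**
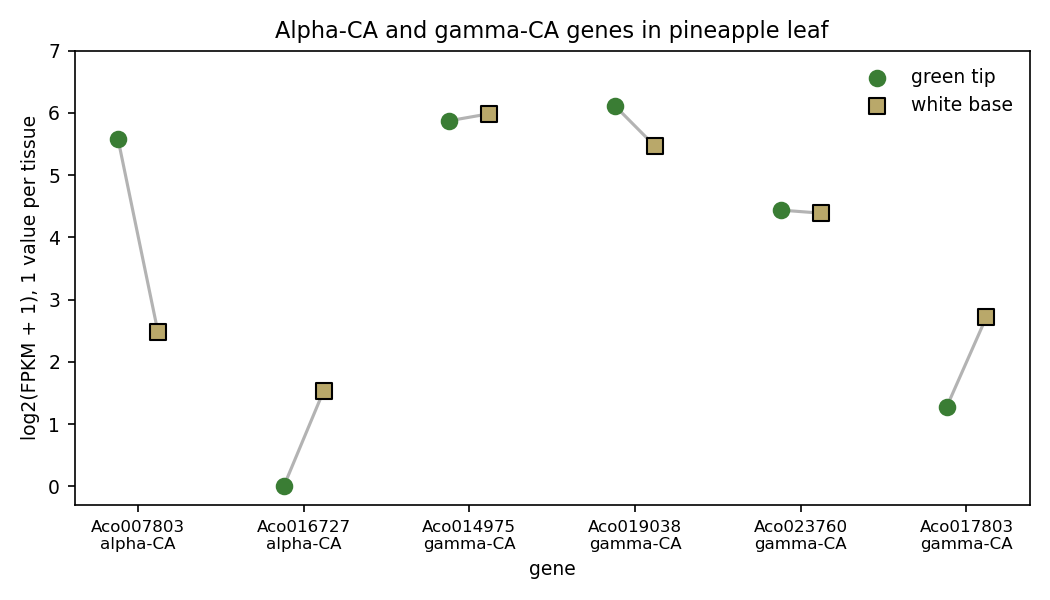
Level of the 6 genes in each tissue. The y axis is log2(FPKM + 1) with 1 deposited value per tissue, circles are the green tip and squares the white base, and lines join the values of a gene. Aco007803 has 46.7 FPKM at the green tip and 4.60 FPKM at the white base, Aco016727 and Aco017803 are lower at the green tip, and the other 3 gamma-CA genes are within 2-fold.

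The rank of a gene within a tissue does not depend on a scaling factor either, although the percentiles below are taken among genes above 0.5 FPKM and depend on that limit for genes with low values. Of the 17110 genes above 0.5 FPKM at the green tip, 88.5% were below Aco019038, 86.1% below Aco014975, 82.6% below Aco007803, 63.2% below Aco023760 and 10.3% below Aco017803. Of the 18096 genes above 0.5 FPKM at the white base, 89.6% were below Aco014975, 83.3% below Aco019038, 63.7% below Aco023760, 29.3% below Aco017803, 25.9% below Aco007803 and 13.1% below Aco016727. Among all genes above 0, the percentile was 22.0 for Aco017803 at the green tip and 23.7 for Aco016727 at the white base. Aco019038, Aco014975 and Aco023760 thus had similar places in both tissues, and Aco007803 did not. The median of the expressed genes was 12.8 FPKM at the green tip and 12.9 FPKM at the white base, so these 3 gamma-CA genes were above the median in both.

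In the order of the 10 CA genes, the green tip was led by the beta-CA genes Aco005402 with 198 FPKM and Aco006181 with 136 FPKM. They were followed by the gamma-CA genes Aco019038 and Aco014975, the alpha-CA gene Aco007803 and the beta-CA gene Aco002732 with 40.3 FPKM. At the white base the gamma-CA genes Aco014975, Aco019038 and Aco023760 took the first 3 places. The beta-CA genes Aco002732 with 15.9 FPKM and Aco005402 with 9.68 FPKM came next, then Aco017803, Aco007803 and Aco016727, and Aco006181 followed with 0.485 FPKM. Since the spread between libraries is unknown, no neighbours in either order can be said to differ beyond it.

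The criterion for counting a gene was a difference of 2-fold or more on FPKM + 1, which is a size without a test. All 6 genes had a mean over 0.5 FPKM, the minimum for this count. Of them 1 was higher at the green tip (Aco007803), beside 17.2% of the 18372 genes counted. At the white base 2 of the 6 were higher (Aco017803 and Aco016727), beside 20.7% of all genes counted. Aco016727 was listed at 0 at the green tip. With such a 0, any mean over 0.5 FPKM is past 2-fold on FPKM + 1. Its call was therefore fixed in advance, as for all 540 such genes, which are within the 20.7%. Counts of this size from 6 genes are not a result about the class. Among the 4 gamma-CA genes the median log2 ratio was -0.03, with 2 genes above 0 and 2 below, and the median of all genes counted was -0.01. The summed FPKM of all genes was 1136442 at the green tip against 611241 at the white base, and the 100 highest genes held 50.0% of the sum at the green tip and 18.7% at the white base. TPM rescaling counted 1648 genes toward the green tip and 7725 toward the white base, in place of 3169 and 3812.

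**Figure D3:**
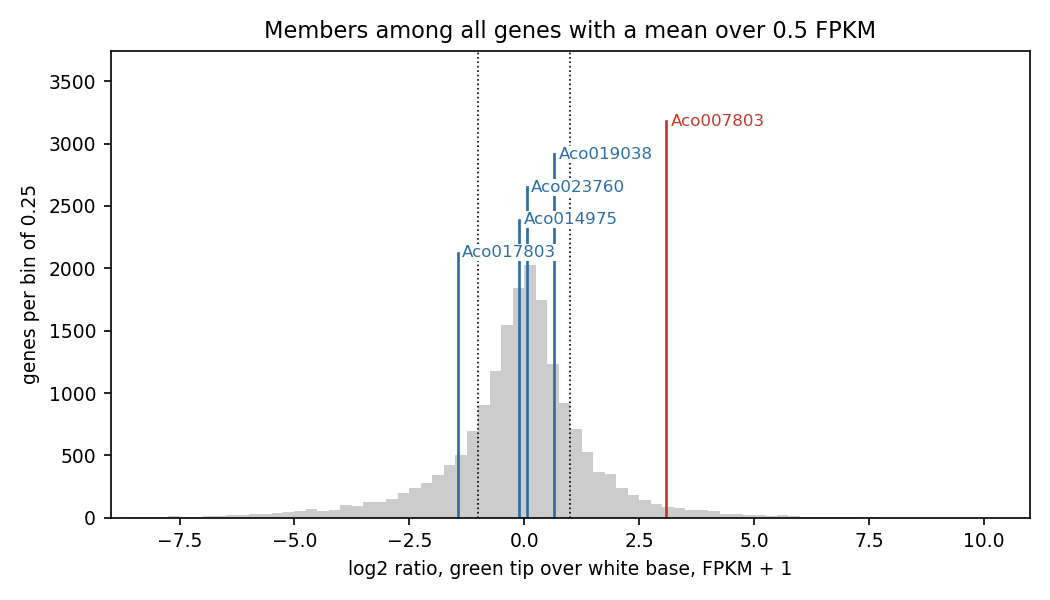
Log2 ratios of 5 of the 6 genes among all genes with a mean over 0.5 FPKM. The x axis is the log2 ratio of green tip over white base on FPKM + 1, grey bars give the number of genes per bin, coloured lines mark alpha-CA (red) and gamma-CA (blue) genes, and dotted lines mark 2-fold. Aco014975 and Aco023760 lie at the centre at -0.11 and 0.05, and Aco007803 lies far to the right at 3.09. Aco016727 is left out because it is listed at 0 at the green tip.

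The near level values of the gamma-CA class depend on how the columns are scaled. Median-of-ratios scaling moved the median log2 ratio of all genes by only -0.0074, so it left the columns nearly as deposited. Whether the deposited FPKM had already been scaled between the tissues was not tested. TPM rescaling moved the median log2 ratio of all genes by -0.79, and the log2 ratios became -0.23 for Aco019038, -0.81 for Aco023760 and -0.99 for Aco014975. Aco014975 then had 50.8 TPM at the green tip and 102.2 TPM at the white base, just past 2-fold without the pseudocount. The log2 ratio of the gamma-CA sums became -0.72, from 0.17 as deposited. Rescaling over the genes other than the 100 highest moved the median of all genes by -0.11, and Aco019038 then had 0.53 and Aco014975 -0.23. Relative to the median of all genes, the median of the 4 gamma-CA genes was at -0.02 on the log2 scale as deposited, at -0.10 with TPM and at -0.21 with quantile normalization. Aco007803 and Aco017803 kept their direction and were past 2-fold under each scaling, with Aco007803 between 2.30 and 3.24 and Aco017803 between -2.17 and -1.05.

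**Figure D4:**
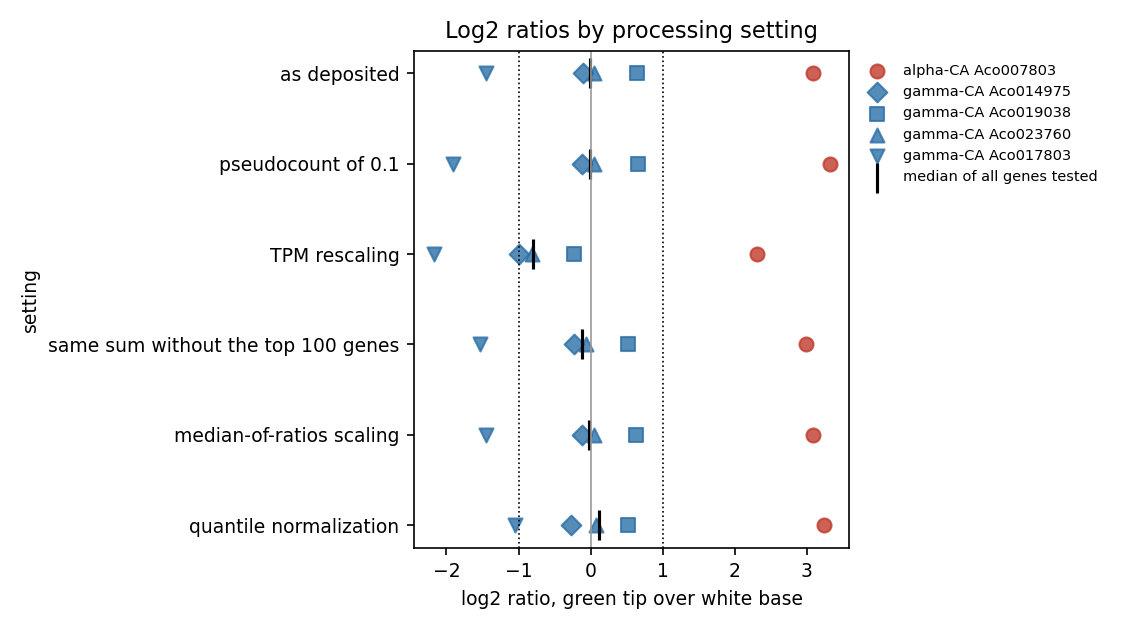
Log2 ratio of green tip over white base (x axis) for 5 of the 6 genes under each setting (y axis). Red marks are alpha-CA and blue marks gamma-CA, the black bar is the median of all genes with a mean over 0.5 FPKM, and dotted lines mark 2-fold. With TPM rescaling the gamma-CA genes move left together with the median, which is at -0.80 there, while Aco007803 is to the right at 2.30 and Aco017803 to the left at -2.17. Aco016727 is left out because it is listed at 0 at the green tip.

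The other enzymes of carbon fixation were taken from the study's list of 38 genes, which holds 32 genes beside the 6. Of the 32 genes, 28 had a mean over 0.5 FPKM, with a median log2 ratio of 0.30. Of these 28, 10 were past 2-fold toward the green tip and 4 toward the white base. Among all 18372 genes counted the shares were 17.2% and 20.7%, which also stand beside the family counts below. After TPM rescaling this balance turned over, with 5 and 9 genes and a median of -0.53. All genes shifted likewise with TPM, to 1648 and 7725 genes and a median of -0.80. With quantile normalization the counts of the 28 were 8 and 6, beside 3670 and 3373 of all genes. Their log2 ratios ran from -3.48 for Aco009967, which belongs to the malic enzymes that decarboxylate malate, to 6.52 for the beta-CA gene Aco006181. All 3 beta-CA genes were past 2-fold toward the green tip, with a median log2 ratio of 4.22, but Aco002732 was within 2-fold after TPM rescaling, at 0.44. The PEPC genes, whose product uses the bicarbonate, had log2 ratios from -2.29 to 1.40, with 1 of 5 past 2-fold in each direction. After TPM rescaling, 0 of the 5 were past 2-fold toward the green tip and 3 toward the white base. Within the malate dehydrogenase family, which reduces oxaloacetate to malate, 4 of the 13 genes counted were past 2-fold toward the green tip and none toward the white base, whereas TPM rescaling gave 2 and 3 genes. The span of log2 ratios on FPKM + 1 was 2.09 within the gamma-CA class and 5.23 within the beta-CA class. Each span has an end set by a low value, which the pseudocount damps. These are Aco017803 with 1.41 FPKM at the green tip and Aco006181 with 0.485 FPKM at the white base. The span of the alpha-CA members is not given because Aco016727 was listed at 0.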

How the data were processed

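Per their methods, the authors used Trimmomatic for trimming, HISAT2 for alignment to the pineapple genome with unique hits retained, and StringTie for expression values in FPKM. The submitters' processing notes name TopHat2 2.1.0, Cufflinks and Cuffdiff 2.2.1 instead, and which tools made the deposited FPKM values was not resolved. The genome build and the way in which 2 libraries became 1 column are not given in the sources used here. With unique hits alone, genes with near identical copies lose reads. The matrix holds 3 value columns, of which the last is the mean of both tissues. Gene lengths are not in the matrix, and among 226 genes with low values at most 9 shared a bin of the log2 ratio (0.01 wide), so depth was not recovered and no interval or detection limit is given. The 4 bisulfite libraries were not analysed here.

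The 6 genes were selected by identifier, and classes follow the study's list of CAM genes and primers. Members, lists and criteria were chosen with earlier results of these data known. Log2 ratios were calculated on FPKM + 1 where the mean was over 0.5 FPKM (18372 genes), and 2-fold was the criterion. No gene identifier matched the RefSeq gene table (0 of 27024), so no coordinates, sequences or marker genes of the tissues are given. The study called differential expression on read counts, which was not repeated. The genes named are the 6, the other CA genes, the extremes of the carbon fixation list and, for each of the 6, the 2 genes nearest in log2(FPKM + 1). Alternatives were a pseudocount of 0.1, TPM, equal sums without the top 100 genes, median-of-ratios, quantile normalization, other filters and a 1.5-fold criterion. Python 3.11.15, numpy 2.4.6, pandas 2.3.3 and matplotlib 3.10.9 were used, and the code was tested on simulated data.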

Additional observations from a re-analysis of the deposited data

How the results depend on the processing

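The limit for log2 ratios was 2-fold, and for counts, shares and percentiles a factor of 1.5. No paired analysis was possible because each tissue has a single column, and no library could be left out. TPM rescaling reversed the log2 ratios of Aco019038 (-0.23) and Aco023760 (-0.81) and that of the gamma-CA sums (-0.72). It put 5 other carbon fixation genes past 2-fold toward the green tip and 9 toward the white base (10 and 4 as deposited), and 1648 and 7725 of all genes (3169 and 3812 as deposited), which follows from its shift of the column ratio by -0.89 on the log2 scale. Equal sums without the top 100 genes reversed Aco023760 alone, to -0.067. With a 1.5-fold criterion, 2 of the 6 genes were higher at the green tip, beside 4848 of the 18372 genes counted. At the white base 2 of the 6 were higher, beside 5486 of the 18372, and so were 7 other carbon fixation genes. With a mean over 1 FPKM, Aco016727 was no longer counted. This left Aco017803 as the 1 member higher at the white base, beside 3578 of all genes passing this filter. At the green tip 1 member was higher, beside 3050. Among all genes above 0, the percentile of Aco016727 at the white base was 23.7 and that of Aco017803 at the green tip was 22.0. A pseudocount of 0.1, median-of-ratios scaling and quantile normalization moved no count of genes by over 1.5 times. They changed neither the direction nor the side of 2-fold for the sums of both classes and the 5 genes above 0 in both tissues. Median-of-ratios scaling moved the column ratio by only -0.0085 on the log2 scale, so it could change little. Leaving out the filter could not change these results. A gene with a mean below 0.5 FPKM cannot reach 2-fold on FPKM + 1, and the filter does not enter a gene's own ratio.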

Other observations

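With 2 values per gene, likeness to other genes can be given only as a distance in log2(FPKM + 1) of both tissues, and it says that levels are alike at these values. Of the 6 genes, Aco007803 had the fewest near genes, with 2 of the matrix within a distance of 0.1. These were Aco016528 with 47.4 FPKM at the green tip and 4.99 FPKM at the white base, and Aco009858 with 50.0 and 4.50 FPKM. Aco023760 had 62 genes within this distance, and the nearest were Aco008324 and Aco007137. Aco016727 had 52, nearest Aco014208 and Aco006840, both also listed at 0 at the green tip. At so low a level FPKM + 1 compresses differences, so its count cannot be set against those of genes with higher values. Aco014975 had 24, nearest Aco026501 and Aco031530. Aco019038 had 18, nearest Aco009484 and Aco001737. Aco017803 had 10, nearest Aco007902 and Aco003213. The matrix pairs none of these identifiers with a gene name.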
